A study of Mus musculus with 12 samples.

Results

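The Rab GTPases are the largest branch of the Ras superfamily of small GTP-binding proteins. Here they were taken as every symbol of the deposited expression table that consists of Rab, a number and at most 1 further letter, which gave 50 of the 28643 gene symbols in use. The rule used names only and no measured value. The study asked how the RNA-binding protein IGF2BP3 affects the translation of mRNAs in mouse round spermatids, the haploid germ cells that follow meiosis. Flow cytometry was used to isolate these cells from 8-week-old males, with the elongation blocker cycloheximide present throughout. The males were either Igf2bp3+/- (the control, carrying 1 intact allele) or Igf2bp3-/-. Both genotypes share the allele made by Cas9 in C57BL/6 zygotes, a frameshift in the exon coding for the first KH domain that acts in every cell of the animal. Per the methods, Igf2bp3-/- males with impaired fertility were selected, so the knockout libraries stand for that subset of animals. From each extract a small portion was kept as total RNA (RNA-seq), and mRNA bound to several ribosomes was collected from a sucrose gradient (RNC-seq, ribosome nascent-chain complex sequencing). Each genotype had 3 replicates in each assay, 12 libraries in all. The deposited table heads the Igf2bp3+/- columns WT, but the labels give them as heterozygous and no fully wild-type group entered the comparisons.

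A Rab protein is a molecular switch. Guanine exchange factors (GEFs) load it with GTP on its own membrane, GTP-bound Rab recruits effectors such as tethers and motors, and GTPase-activating proteins (GAPs) end the cycle, after which GDP dissociation inhibitors take the protein back into the cytosol. Round spermatids build the acrosome from Golgi-derived and endosomal vesicles and start the flagellum, which is a modified cilium, and both processes use Rab-directed traffic.

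The membrane anchor that makes this cycle possible is written into the end of the coding sequence. Rab geranylgeranyl transferase attaches lipids to cysteines close to the C terminus, so the last 30 coding bases before the stop codon are shown for the 12 Rab transcripts with the highest level in Igf2bp3+/- RNA-seq, 5′ to 3′, with the cysteine codons (TGC or TGT) in capitals. The sequences come from GENCODE M21 on GRCm38, and the coordinates beside each name are those of the whole gene.
Rab1b (chr19:5099205-5107072, minus strand): cctgtgaagcctgctagcggtggcTGCTGC
Rab11a (chr9:64715299-64737758, minus strand): aagccaaaggtgcagTGCTGTcagaacatc
Rab28 (chr5:41624976-41708157, minus strand): cctcctcggagctccatgTGTgcagtgcag
Rab4b (chr7:27168424-27178896, minus strand): caagccgtggcccctcagcccTGTggcTGC
Rab6a (chr7:100607410-100641268, plus strand): caaccagtcaatgaaggcggcTGTtccTGC
Rab11b (chr17:33742484-33760530, minus strand): cccaacaagctgcagTGCTGCcagagcctg
Rab8a (chr8:72161200-72183904, plus strand): aggaccagcttcttccggTGCagtctcctg
Rab42 (chr4:132302197-132303385, minus strand): aggaagcaggactcaggcacaTGCcaaTGT
Rab1 (chr11:20201432-20226856, plus strand): ccagtcaagcagtcaggtggaggcTGCTGC
Rab7 (chr6:87999106-88045270, minus strand): gccaaggcctccgcagaaagcTGCagtTGT
Rab2b (chr14:52261759-52279545, minus strand): tctgacatagggcctgactctggcTGCTGC
Rab23 (chr1:33719887-33742564, plus strand): agaaaccctttcagcagcTGTagtgtaccc
Of the 50 genes, 45 had 2 or more cysteine codons among their last 10 codons, against 4.45% of 21597 protein-coding genes read in the same way on the coding strand. The other 5 (Rab8a, Rab8b, Rab13, Rab23 and Rab28) had 1. In the sequences above, the Rab1b, Rab1 and Rab2b transcripts end in a pair of adjacent cysteine codons, Rab11a and Rab11b carry the pair a few codons before the end, and Rab8a, Rab23 and Rab28 show a lone cysteine codon with 3 codons after it. Which enzyme acts on a given cysteine cannot be read from these sequences. All 50 genes were found in the annotation, 1 of them through a synonym (the deposited Rab1 is Rab1a there), on 18 chromosomes, with coding lengths from 582 to 843 nt.

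Levels are given as FPKM, a fragment count divided by transcript length and by library size, so that genes of different length can be set side by side. The Rab genes differed widely in level. In Igf2bp3+/- RNA-seq 7 genes reached 10 FPKM, 21 lay between 1 and 10, 13 lay between 0.1 and 1, and 9 stayed under 0.1. Rab1b alone made up 24.9% ± 1.61 of the summed Rab FPKM (SD, n = 3), and the 5 highest genes together made up 60.2% ± 0.283. The summed Rab FPKM lay between 296 and 315 in Igf2bp3+/- RNA-seq, between 319 and 352 in Igf2bp3-/- RNA-seq, between 296 and 298 in Igf2bp3+/- RNC-seq and between 292 and 387 in Igf2bp3-/- RNC-seq. Total FPKM differed between libraries. In the same order of groups, the Rab sum was 0.0644% to 0.0657%, 0.0671% to 0.0691%, 0.0475% to 0.0512% and 0.0467% to 0.0660% of it.

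**Figure D1:**
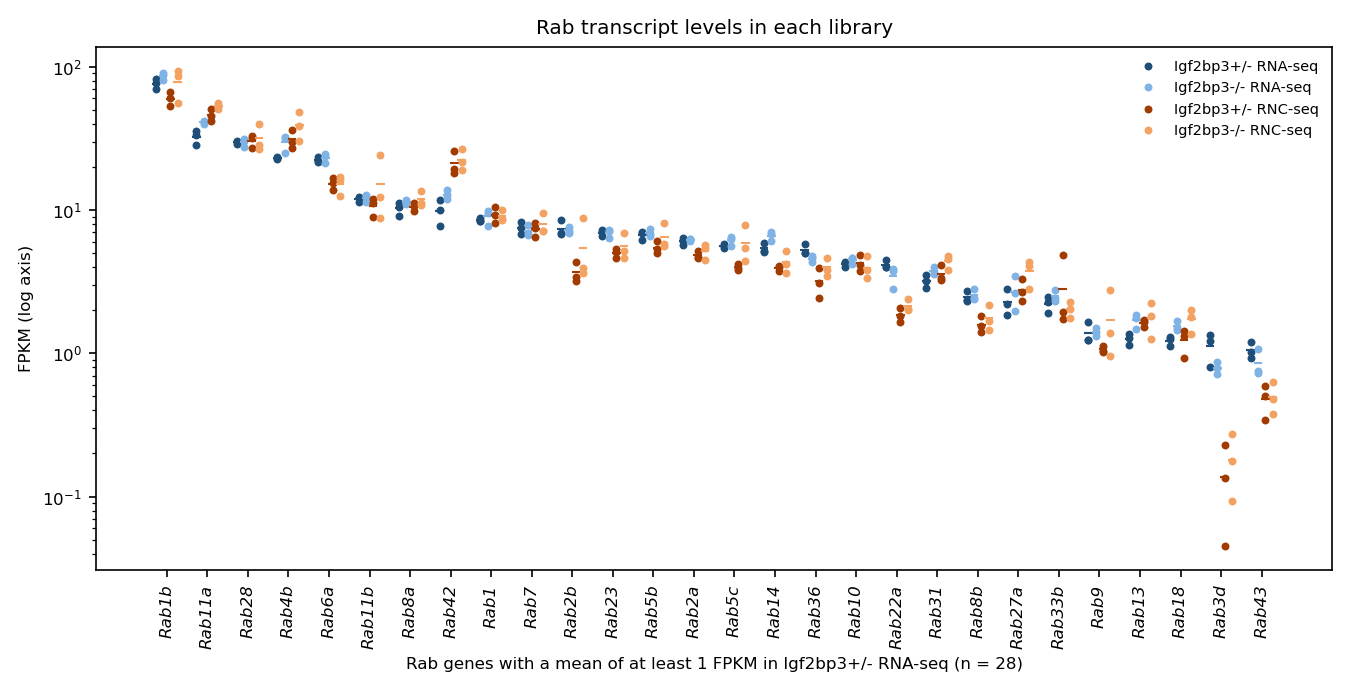
FPKM on a log axis for the 28 Rab genes with a mean of at least 1 FPKM in Igf2bp3+/- RNA-seq, ordered by that mean. Each point is 1 library and each dash a group mean (n = 3). Rab1b lies highest, Rab42 lies higher in the RNC-seq libraries than in the RNA-seq libraries, and Rab3d and Rab22a lie lower there.

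The ER and Golgi Rabs held the largest share of these transcripts. Rab1b, which with Rab1 directs vesicles from the endoplasmic reticulum to the Golgi, stood at 69.7, 81.5 and 76.6 FPKM in the 3 Igf2bp3+/- RNA-seq libraries. Rab6a, which serves traffic back from the endosomes and through the Golgi, stood at 23.3, 21.8 and 21.8 FPKM, and Rab1 at 8.35, 8.36 and 8.78 FPKM. Rab2b and Rab2a, which act at the Golgi and in retrograde traffic, followed at 7.41 ± 1.01 and 6.06 ± 0.383 FPKM (SD, n = 3). Their ranges, 6.77 to 8.57 and 5.66 to 6.42 FPKM, did not overlap. The other ER and Golgi members were lower, with Rab33b at 2.22 ± 0.302 FPKM, Rab18 at 1.23 ± 0.0875 FPKM and Rab6b at 0.369 ± 0.0793 FPKM in the same libraries. In all, 8 of the 10 genes of this group reached 1 FPKM.

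The recycling endosome Rabs came next. Rab11a, which returns receptors from the recycling compartment to the surface, stood at 35.7, 33.2 and 28.3 FPKM in Igf2bp3+/- RNA-seq. Rab4b, a Rab of the fast recycling route, stood at 22.5, 23.3 and 23.1 FPKM, while its relative Rab4a was between 0.0662 and 0.233 FPKM. Rab11b stood at 12.0 ± 0.522 FPKM, Rab14 at 5.40 ± 0.459 FPKM and Rab13 at 1.26 ± 0.102 FPKM (SD, n = 3). Rab15, Rab17 and Rab35 stayed under 1 FPKM.

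Among the Rabs of the surface and cilium, Rab28 was the highest, at 29.7, 30.1 and 29.1 FPKM in Igf2bp3+/- RNA-seq, which overlapped the range of Rab11a. Rab28 is known from the cilium and from photoreceptor outer segments. Rab8a, which carries Golgi-derived vesicles to the surface and to the cilium, stood at 10.2 ± 1.02 FPKM and Rab23, a negative regulator of Hedgehog signalling at the cilium, at 6.95 ± 0.356 FPKM. Rab10 (4.20 ± 0.189 FPKM) and Rab8b (2.47 ± 0.220 FPKM) were lower, and Rab34, which serves the intracellular route of cilium formation, was at 0.465 ± 0.190 FPKM.

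Endosomal Rabs were of middle level. Rab5b and Rab5c, which drive fusion of early endosomes, stood at 6.72 ± 0.438 and 5.60 ± 0.174 FPKM in Igf2bp3+/- RNA-seq, against 0.777 ± 0.221 FPKM for Rab5a (SD, n = 3). Rab7, the Rab of late endosomes and lysosomes, stood at 7.48 ± 0.722 FPKM, while Rab9 was at 1.38 ± 0.245 FPKM and the other 4 members of that group did not reach 1 FPKM. Rab22a (4.14 ± 0.266 FPKM) and Rab31 (3.19 ± 0.344 FPKM) are early endosome Rabs of close kinship.

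The Rabs of regulated secretion were low in these cells. Rab27a, a Rab of secretory granules and melanosomes, was at 2.27 ± 0.482 FPKM and Rab3d at 1.12 ± 0.285 FPKM, and the remaining 5 (Rab3a, Rab3b, Rab3c, Rab26 and Rab37) were under 1 FPKM in Igf2bp3+/- RNA-seq. Rab3a and Rab32 were listed at 0 in all 3 of those libraries. Rab42, whose function is little studied, stood at 11.8, 10.1 and 7.79 FPKM, and Rab36 at 5.25 ± 0.467 FPKM. In the order of levels, Rab1b did not overlap Rab11a, and Rab6a did not overlap Rab11b, while Rab11a and Rab28, Rab4b and Rab6a, and the run from Rab7 down to Rab36 overlapped from each gene to the next.

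By membrane step, ER and Golgi Rabs took between 39.5% and 42.2% of the summed Rab FPKM in Igf2bp3+/- RNA-seq and between 29.8% and 34.5% in Igf2bp3+/- RNC-seq. The recycling endosome Rabs took between 23.9% and 25.7% in RNA-seq and between 30.2% and 32.4% in RNC-seq of the same genotype. In Igf2bp3-/- the ER and Golgi Rabs took between 39.9% and 40.9% in RNA-seq and between 30.9% and 37.0% in RNC-seq, and the recycling endosome Rabs between 27.0% and 27.4% and between 32.0% and 33.3%. In both genotypes the ranges of the 2 assays did not overlap for either group. The shares are descriptions, since a share of 1 group falls where another rises. A few high genes carried them. In Igf2bp3+/- the mean share of Rab11a went from 10.6% in RNA-seq to 15.4% in RNC-seq and that of Rab4b from 7.55% to 10.5%. Rab11b (3.93% to 3.60%) and Rab14 (1.78% to 1.32%), of the same group, went down. Among ER and Golgi Rabs, Rab1b went from 24.9% to 20.1% and Rab6a from 7.33% to 5.15%, while Rab1 went up (2.79% to 3.12%).

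**Figure D2:**
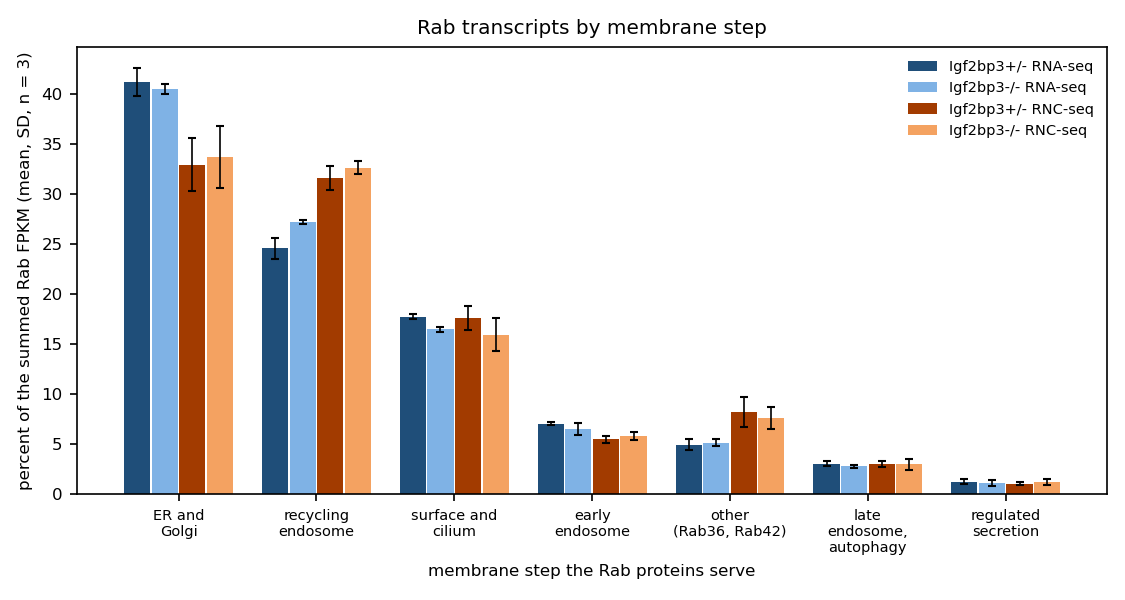
Share of the summed Rab FPKM held by each membrane step (y axis, percent; mean and SD over 3 libraries), with 1 bar for each combination of genotype and assay. ER and Golgi Rabs hold a smaller share in RNC-seq (32.9% in Igf2bp3+/-) than in RNA-seq (41.1%), and recycling endosome Rabs a larger one (31.6% against 24.6%).

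The comparison of RNC-seq with RNA-seq inside a genotype asks which transcripts were over- or under-represented on polysomes, called polysome loading here. It was tested by limma on log2(FPKM + 0.1) over 18414 genes, and a fold change on this scale understates that of low genes. In Igf2bp3+/- spermatids 3 of the 36 Rab genes tested were higher on polysomes and 11 were lower at an adjusted p under 0.05, against 18.2% of all genes tested that were higher and 25.2% that were lower. The share of members called lower was thus near the background and somewhat above it, and the share called higher was below it. The median log2 difference was -0.23 over the 36 members and -0.10 over all genes.

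Rab42 was the member with the highest loading. In Igf2bp3+/- it stood at 11.8, 10.1 and 7.79 FPKM in RNA-seq and at 26.0, 19.4 and 18.1 FPKM in RNC-seq, and the assays did not overlap. The log2 difference was 1.09 ± 0.20 (SE, limma adjusted p = 0.00277). In Igf2bp3-/- the values were 12.7, 12.0 and 13.7 FPKM in RNA-seq and 26.6, 18.9 and 21.6 FPKM in RNC-seq. There the log2 difference was 0.79 ± 0.18 (adjusted p = 0.0157). Rab42 also has the shortest 3′ part after the coding sequence of these transcripts, at 65 nt of a transcript of 761 nt.

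Of the recycling Rabs, Rab11a stood at 50.4, 41.9 and 45.4 FPKM in Igf2bp3+/- RNC-seq, above each of its RNA-seq values, with a log2 difference of 0.50 ± 0.13 (SE, limma adjusted p = 0.0167). Rab4b stood at 29.9, 36.3 and 27.3 FPKM on polysomes, with a log2 difference of 0.43 ± 0.14 (adjusted p = 0.0341). Rab14 went the other way, at 3.76, 3.99 and 4.04 FPKM in RNC-seq against 5.93, 5.12 and 5.15 FPKM in RNA-seq, and fell by 0.45 on the log2 scale (adjusted p = 0.0409). At this limit Rab11a and Rab4b were thus enriched on polysomes in the control cells, and Rab14 was depleted. Of 11 alternative settings, Rab11a passed in 9 and Rab4b in 7. Rab14 did not pass after centring on the library median, after quantile normalization, with the replicate number as a block or without any single replicate number.

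Rab3d, a Rab of secretory granules, had the lowest loading. It stood at 1.35, 1.22 and 0.801 FPKM in Igf2bp3+/- RNA-seq and at 0.136, 0.228 and 0.0451 FPKM in RNC-seq, a log2 difference of -2.42 ± 0.37 (SE, limma adjusted p = 0.00125). In Igf2bp3-/- it was at 0.870, 0.714 and 0.791 FPKM in RNA-seq and at 0.176, 0.272 and 0.0933 FPKM in RNC-seq, a difference of -1.72 ± 0.33 (adjusted p = 0.0085). The lowest library rests on about 3.28 fragments, and with a pseudocount of 1 or 0.01 the control difference ranged from -0.89 to -3.15.

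Rab22a was depleted as well. Its RNC-seq values in Igf2bp3+/- were 1.83, 1.65 and 2.07 FPKM against 3.99, 3.98 and 4.44 FPKM in RNA-seq, so the assays did not overlap and the log2 difference was -1.12 ± 0.17 (SE, limma adjusted p = 0.00126). In Igf2bp3-/- they were 1.99, 2.40 and 2.02 FPKM against 3.74, 3.87 and 2.82 FPKM, and the difference was -0.67 ± 0.21 (adjusted p = 0.0497). Rab22a has the longest annotated transcript among the 28 members of at least 1 FPKM in Igf2bp3+/- RNA-seq, with 6224 nt after its coding sequence. Over the 26 members with a mean of at least 1 FPKM in both assays, control loading and the log2 length of this 3′ part had a Pearson correlation of -0.55 and a Spearman correlation of -0.28. These correlations are descriptions over genes that share the same libraries and the same length correction. Among the 26, the next longest were Rab18 (5774 nt, log2 difference -0.01), Rab11b (5184 nt, -0.17), Rab8b (4055 nt, -0.61) and Rab8a (3767 nt, 0.05). The next shortest after Rab42 was Rab13 (386 nt, 0.36).

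Rab6a, at 13.7, 16.6 and 15.5 FPKM in Igf2bp3+/- RNC-seq, was depleted from polysomes in both genotypes, by a log2 difference of -0.54 ± 0.13 in Igf2bp3+/- (SE, limma adjusted p = 0.00895) and of -0.60 ± 0.18 in Igf2bp3-/- (adjusted p = 0.0407). About 18.99% of its exonic bases are shared with the opposite-strand gene Mrpl48. Rab2b stood at 3.42, 3.22 and 4.36 FPKM in Igf2bp3+/- RNC-seq against 6.88, 8.57 and 6.77 FPKM in RNA-seq, a log2 difference of -0.999 ± 0.18 (adjusted p = 0.00272). Rab2b shares 64.0% of its exonic bases with opposite-strand genes, chiefly Tox4, which was itself at 14.2 FPKM in Igf2bp3+/- RNA-seq and 9.71 FPKM in RNC-seq, and the labels and the methods name different library kits, so reads of the 2 genes may not have been told apart.

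The other members called lower in Igf2bp3+/- were Rab6b (-1.31 ± 0.32), Rab43 (-1.01 ± 0.26), Rab36 (-0.73 ± 0.20), Rab8b (-0.61 ± 0.19), Rab5c (-0.48 ± 0.14) and Rab23 (-0.46 ± 0.14), as log2 differences with SE and limma adjusted p-values between 0.0114 and 0.0298. Rab6b and Rab43 were under 1 FPKM on polysomes, and with a pseudocount of 1 their differences were -0.33 and -0.47. Rab43 shares most of its exonic bases with the same-strand model Gm45140, which stayed at or under 0.239 FPKM. In Igf2bp3-/- the same 6 genes gave -0.50, -0.68, -0.21, -0.52, -0.10 and -0.32 in that order, none past the limit. By role, 4 of the 9 ER and Golgi Rabs tested, 2 of 7 early endosome Rabs and 2 of 6 surface and cilium Rabs were lower on control polysomes, against 25.2% of all genes, and none of these 3 groups had a member that was higher, against 18.2%. These groups are small and their counts are descriptions.

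In Igf2bp3-/- spermatids 1 of the 36 members was higher on polysomes (Rab42) and 3 were lower (Rab3d, Rab22a and Rab6a), against 10.2% of all genes higher and 11.0% lower. All 4 were also called in Igf2bp3+/-. With the replicate number as a block, Rab3d and Rab42 passed in Igf2bp3-/-, while Rab22a (adjusted p = 0.0582) and Rab6a (adjusted p = 0.0593) did not. Over the 11 alternatives run for Igf2bp3-/-, Rab22a passed in 4 and Rab6a in 6. Rab14 missed the limit in Igf2bp3-/-, at -0.61 ± 0.19 (SE, limma adjusted p = 0.0521), as did Rab4b (0.37 ± 0.21, adjusted p = 0.227) and Rab27a (0.47 ± 0.26, adjusted p = 0.228). The 2 genotypes share no library in this comparison, and over the 36 members their log2 differences had a Pearson correlation of 0.86 and a Spearman correlation of 0.75, a description across genes that share length and base composition. That fewer members passed in Igf2bp3-/- does not show a difference between the genotypes, which the test of TE below addresses.

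These counts rest on few libraries. Without replicate 1, 2 or 3 of both assays, 4, 8 and 5 members passed the limit in Igf2bp3+/-, of which 4, 8 and 4 were among the 14, and 0, 3 and 0 in Igf2bp3-/-, where 2 of the 3 were among the 4. RNC-seq and RNA-seq values are each scaled to their own total, so loading is relative to the other transcripts, and after centring every library on its median gene 3 members were higher and 7 lower in Igf2bp3+/-, all genes moving from a median of -0.10 to -0.02.

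**Figure D3:**
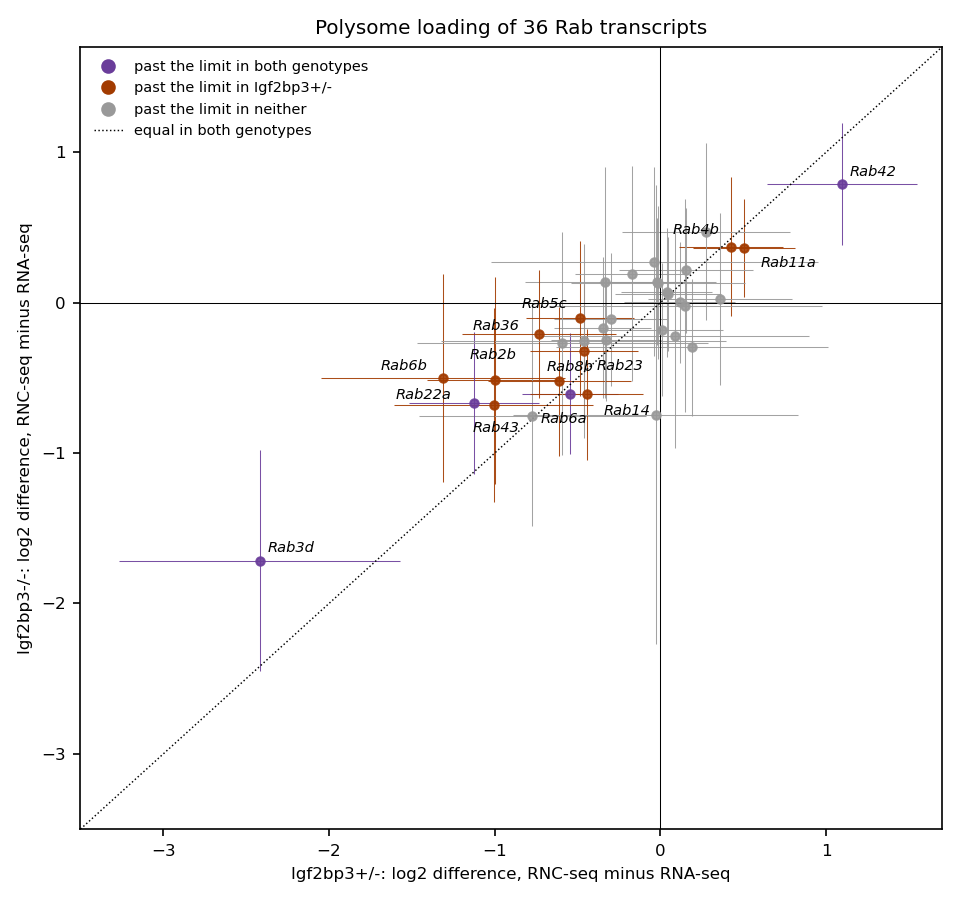
Log2 difference between RNC-seq and RNA-seq of each of 36 Rab transcripts in Igf2bp3+/- (x axis) and in Igf2bp3-/- (y axis), with 95% confidence intervals from limma. Rab42 lies at the upper right (1.09 and 0.79) and Rab3d at the lower left (-2.42 and -1.72), and the 4 purple genes passed the limit in both genotypes.

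Across the 12 libraries between 21490 and 25633 genes were above 0, and 1 fragment on a transcript of 1 kb was worth between 0.0206 and 0.0549 FPKM, the first in replicate 1 of Igf2bp3-/- RNA-seq, the deepest library. Igf2bp3 itself stood at 33.4 to 38.6 FPKM in Igf2bp3+/- RNA-seq and 31.4 to 32.5 FPKM in Igf2bp3-/- RNA-seq, so the transcript, which keeps its exons after a frameshift, does not check the labels. Round spermatid markers summed to between 1492 and 2166 FPKM in RNA-seq, of which Tnp1 made up 771 to 1345 FPKM. Elongating spermatid markers summed to 8838 to 10909 FPKM in Igf2bp3+/- and 9550 to 9951 FPKM in Igf2bp3-/- RNA-seq. Spermatocyte markers summed to 86.4 to 105 and 98.6 to 123 FPKM there. Markers of Leydig cells, the steroid-making cells outside the tubules, were higher in Igf2bp3-/- (7 of the 7 tested above 0, 4 past the limit in RNA-seq), with sums of 15.4 to 22.6 FPKM in Igf2bp3+/- and 48.7 to 55.2 FPKM in Igf2bp3-/- RNA-seq, and of 6.82 to 14.3 and 51.5 to 103 FPKM in RNC-seq, most of it Insl3. Sertoli markers summed to 4.20 to 4.74 and 9.03 to 9.68 FPKM in RNA-seq, with 4 of 5 above 0 and the defining receptor Fshr at or under 0.0535 FPKM, and macrophage and blood markers to 7.26 to 7.78 and 14.2 to 16.3 FPKM, with 8 of 8 above 0. Peritubular markers were mixed in RNA-seq. Their sums were 2.17 to 2.68 and 4.50 to 5.74 FPKM, but 2 of 5 lay above 0, with a median log2 difference of -0.30. Among them Dcn stood at 0.665 to 1.01 and 3.36 to 4.73 FPKM. The part of such cells in the Rab differences between genotypes was not tested, and fewer cells of a type and less RNA per cell cannot be told apart in sorted bulk samples.

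The first genotype comparison asks whether loss of IGF2BP3 altered the amount of Rab mRNA. Of the 40 Rab genes tested in RNA-seq, 0 passed an adjusted p of 0.05 in limma, against 0.256% of 20352 genes, and 5 members (12.5%) had an unadjusted p under 0.05, against 15.7% of all genes tested. The log2 differences of Igf2bp3-/- from Igf2bp3+/- ran from -0.60 to 0.46, with a median of 0.04 over the members and 0.05 over all genes. Among members with a mean of at least 1 FPKM in both assays, the 95% interval reached a median of 0.28 to either side, so a change of the size of a doubling would lie outside most of these intervals.

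The 5 members with an unadjusted p under 0.05, a share below that of all genes, were all higher in Igf2bp3-/-. Rab11a stood at 40.0, 40.8 and 42.0 FPKM in Igf2bp3-/- RNA-seq, above the 28.3 to 35.7 FPKM of Igf2bp3+/-, with a log2 difference of 0.34 ± 0.10 (SE, limma adjusted p = 0.208). Rab4b stood at 25.1, 31.6 and 32.6 FPKM against 22.5 to 23.3 FPKM, with a difference of 0.36 ± 0.11 (adjusted p = 0.217). Rab42 gave 0.39 ± 0.15 (adjusted p = 0.284), Rab13 gave 0.40 ± 0.17 (adjusted p = 0.306) and Rab14 gave 0.29 ± 0.12 (adjusted p = 0.307), and in each of the 5 the genotypes did not overlap.

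At the other end, Rab22a gave -0.26 ± 0.15 (SE, limma adjusted p = 0.453), Rab36 gave -0.19 ± 0.12 (adjusted p = 0.473) and Rab7 gave -0.06 ± 0.12 (adjusted p = 0.837) in RNA-seq. Counted without a model, 7 of the 40 members had all 3 Igf2bp3-/- values above all 3 Igf2bp3+/- values, against 14.1% of all genes, and 2 had them all below, against 8.68%. Both shares are near those of all genes.

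On polysomes, 0 of the 38 Rab genes tested passed an adjusted p of 0.05 in limma, against 0.115% of 19051 genes, and 0 members had an unadjusted p under 0.05, against 6.48% of all genes. The log2 differences ran from -0.72 to 0.76, with a median of 0.18 over the members and 0.13 over all genes. Rab5c stood at 7.80, 5.39 and 4.37 FPKM in Igf2bp3-/- RNC-seq and at 3.79, 4.18 and 3.96 FPKM in Igf2bp3+/-, so the groups did not overlap, with a difference of 0.51 ± 0.26 (SE, limma adjusted p = 0.786). Rab9 (0.50 ± 0.36, adjusted p = 0.831) and Rab18 (0.46 ± 0.29, adjusted p = 0.822) had the next highest differences among members of at least 1 FPKM. Rab33b (-0.32 ± 0.36), Rab10 (-0.10 ± 0.25) and Rab1 (-0.03 ± 0.22) had the lowest, with adjusted p-values of 0.897 to 0.988. The 3 Igf2bp3-/- values lay above all control values for 4 of 38 members, against 9.44% of all genes, and below them for 0 members, against 1.85%.

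The Igf2bp3-/- polysome libraries spread more than the control ones. Rab11b stood at 12.4, 24.4 and 8.81 FPKM in Igf2bp3-/- RNC-seq against 8.93, 11.9 and 11.2 FPKM in Igf2bp3+/-, and Rab2b at 3.91, 8.77 and 3.65 FPKM against 3.22 to 4.36 FPKM, so that replicate 2 of Igf2bp3-/- was the high library for both. Rab4b (47.9, 38.9 and 30.1 FPKM), Rab5c and Rab9 (2.76, 0.956 and 1.39 FPKM) were instead highest in replicate 1. In RNC-seq the 95% interval of members of at least 1 FPKM reached a median of 0.52 to either side.

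**Figure D4:**
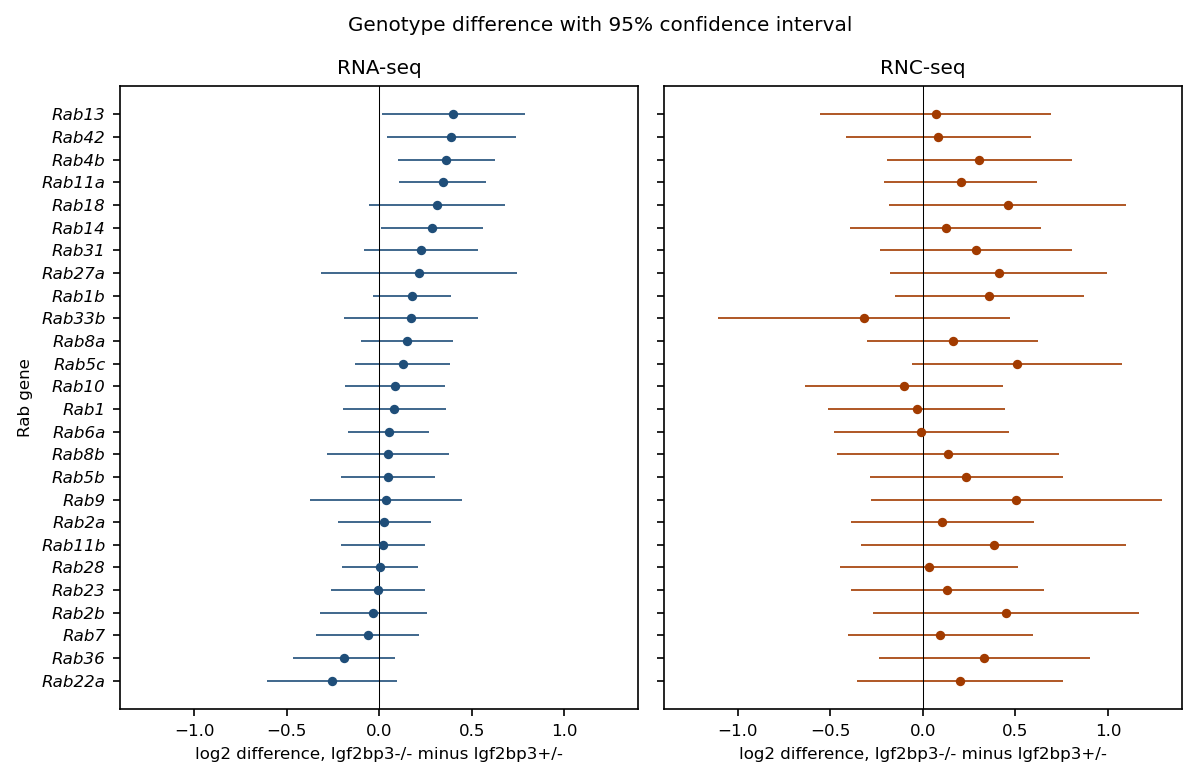
Log2 difference of Igf2bp3-/- from Igf2bp3+/- (x axis) for the 26 Rab genes with a mean of at least 1 FPKM in both assays, in RNA-seq (left) and RNC-seq (right), with 95% confidence intervals from limma. Rab13, Rab42, Rab4b, Rab11a and Rab14 have RNA-seq intervals above 0, and every RNC-seq interval includes 0.

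Translational efficiency (TE, the ratio of RNC-seq to RNA-seq) was compared between genotypes by a term for genotype within assay (an interaction) in 1 fit to the 12 libraries. Of the 36 Rab genes tested 0 passed an adjusted p of 0.05 in limma, against 0.00543% of 18414 genes (1 gene), and 0 members had an unadjusted p under 0.05, against 7.13% of all genes. The members ran from -0.72 to 0.81 with a median of 0.11, against 0.06 over all genes. Rab36 (0.52 ± 0.27, adjusted p = 0.712), Rab2b (0.48 ± 0.38, adjusted p = 0.77) and Rab9 (0.47 ± 0.42, adjusted p = 0.799) had the highest log2 differences in TE among members of at least 1 FPKM. Rab33b (-0.49 ± 0.43, adjusted p = 0.795), Rab13 (-0.33 ± 0.31, adjusted p = 0.807) and Rab42 (-0.30 ± 0.27, adjusted p = 0.797) had the lowest. The 95% interval of these members reached a median of 0.54 to either side.

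Paralogous Rabs share a membrane step, and a ratio within a library needs no scaling between libraries. Rab1 and Rab1b, whose coding sequences are 76.1% identical, had a log2 ratio of -3.14 ± 0.12 in Igf2bp3+/- RNA-seq (SD, n = 3), and Rab4a and Rab4b, 73.3% identical, one of -6.57 ± 0.53. Rab6a exceeded Rab6b by 5.59 ± 0.28 on the same scale, and Rab5a stood at -2.73 ± 0.39 against Rab5c. Rab2a and Rab2b (-0.28 ± 0.12) and Rab5b and Rab5c (0.26 ± 0.07) were close in level.

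For the 6 pairs with both genes at a mean of at least 1 FPKM in RNA-seq, the ratio was compared between assays by a two-sided exact permutation test within genotype (400 arrangements, smallest p 0.005). The arrangements treated the 6 libraries of a genotype as independent. Per the methods both assays come from the same extract, but the labels do not tie replicate numbers to animals, so no pairing entered this test. The ratio of Rab8a to Rab8b, 77.4% identical in coding sequence, lay between 1.93 and 2.23 in the 6 RNA-seq libraries and between 2.57 and 2.83 in the 6 RNC-seq libraries, on the log2 scale. The difference of 0.62 had an exact p of 0.005, the smallest that the test can give, and 0.015 after Benjamini-Hochberg adjustment over the 6 pairs. The ratio of Rab22a to Rab31 lay between -0.32 and 0.62 in RNA-seq and between -1.21 and -0.65 in RNC-seq, so that Rab31 was the higher of these on polysomes. That difference of -1.08 had the same exact p of 0.005 (adjusted 0.015). In the pairs that passed, Rab8b and Rab22a were called lower on control polysomes. Of the pairs that did not pass, Rab2b and Rab5c were called lower as well and Rab11a higher. Those calls and the ratios share the control libraries.

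The other 4 pairs did not pass. The exact permutation p was 0.08 for Rab1 and Rab1b (difference 0.32), 0.095 for Rab2a and Rab2b (0.47) and 0.11 for Rab11a and Rab11b (0.42), each 0.132 after adjustment over the 6 pairs, and 0.645 for Rab5b and Rab5c (0.09). For Rab2a and Rab2b, replicate 2 of Igf2bp3-/- RNC-seq held the lowest ratio, -0.96.

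**Figure D5:**
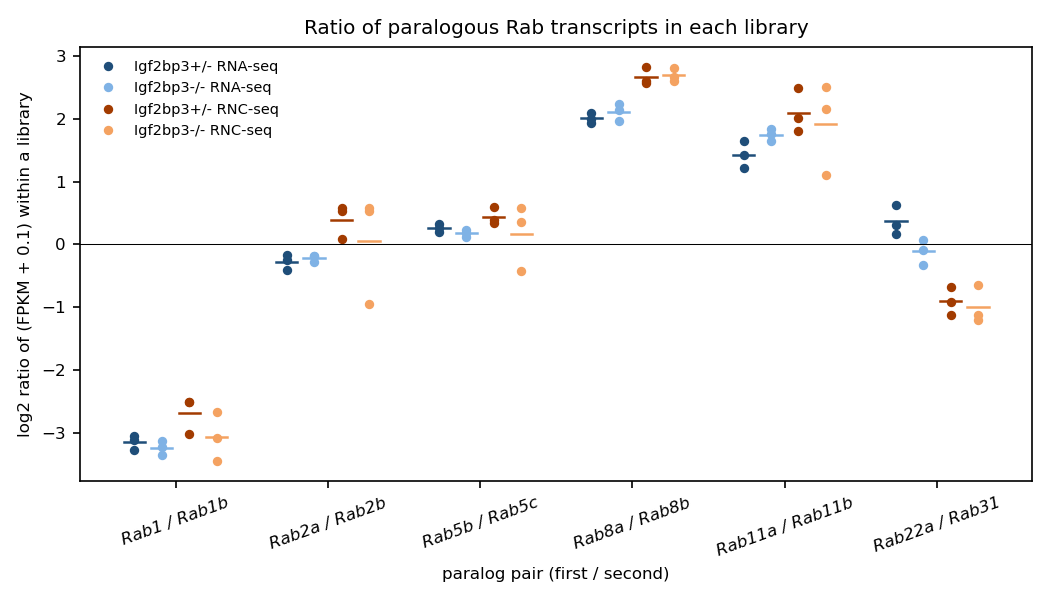
Log2 ratio of FPKM + 0.1 between the first and the second gene of 6 paralog pairs (y axis) in each of the 12 libraries, with dashes at group means (n = 3). The RNC-seq points lie above all RNA-seq points for Rab8a and Rab8b and below all of them for Rab22a and Rab31.

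The machinery that acts on Rab proteins was read from lists of GEFs, GAPs, effectors, chaperones and Rab-like proteins. On control polysomes, 23 of the 30 GEFs tested, 16 of the 26 GAPs and 17 of the 28 effectors were lower and 0 of each were higher at an adjusted p under 0.05, with median log2 differences of -1.09, -0.76 and -1.11 against -0.10 over all genes and -0.23 over the Rab genes. Of all genes tested 25.2% were lower and 18.2% higher there. In Igf2bp3-/- 8 of the 30 GEFs, 7 of the 26 GAPs and 8 of the 28 effectors were lower and 0 higher, against 11.0% and 10.2% of all genes. The lists, including the chaperones below, were read under the main settings only. Over all genes, the calls in Igf2bp3-/- fell from 3890 to 4 without replicate 1 and to 4 without replicate 3.

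The chaperones and prenylation enzymes split. Rabac1, a membrane protein that binds prenylated Rabs, stood at 97.4 ± 6.50 FPKM in Igf2bp3+/- RNA-seq and 202 ± 15.6 FPKM in RNC-seq (SD, n = 3), a log2 difference of 1.05 ± 0.11 (SE, limma adjusted p = 0.000293), and was higher on Igf2bp3-/- polysomes as well (1.14 ± 0.20, adjusted p = 0.00666). Rabif, a small protein that holds nucleotide-free Rabs, was higher in both genotypes (0.77 ± 0.17, adjusted p = 0.00721, and 0.84 ± 0.21, adjusted p = 0.0233). Gdi2, the GDP dissociation inhibitor, was lower in both, from 32.1 ± 1.14 to 17.8 ± 3.43 FPKM in Igf2bp3+/- (-0.87 ± 0.16, adjusted p = 0.00311, and -0.80 ± 0.17, adjusted p = 0.0114). Rabggta and Rabggtb, the subunits of Rab geranylgeranyl transferase, did not pass in either genotype (log2 differences of -0.19 and 0.10 in Igf2bp3+/-).

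Between genotypes none of the 5 lists had a gene past the limit in RNA-seq, RNC-seq or TE. Of 33 GEFs tested in RNA-seq 9 had a difference above 0, against 56.2% of all genes. Of 30 tested in RNC-seq 29 had one, against 65.3% of all genes. The medians were -0.11 and 0.31, against 0.05 and 0.13 over all genes. In TE, where the RNA-seq and RNC-seq libraries enter together, 28 of 30 GEFs lay above 0, against 55.6% of all genes. Their median was 0.46, against 0.06 over all genes. GAPs (21 of 26) and effectors (24 of 28) also lay mostly above 0 in TE, so this lean was not particular to GEFs. Replicate 2 of Igf2bp3-/- RNC-seq was the high library for Sbf1 (6.88, 17.4 and 6.15 FPKM) and Hps4 (24.5, 43.3 and 21.4 FPKM). The smallest adjusted p-values belonged to Ift27, a Rab-like subunit of the intraflagellar transport train, in RNA-seq (0.45 ± 0.11, SE, limma adjusted p = 0.163; 21.2 ± 1.78 FPKM in Igf2bp3+/- and 29.1 ± 2.79 FPKM in Igf2bp3-/-), and to Tbc1d21, a GAP-domain protein of the testis (0.27 ± 0.08, adjusted p = 0.197). Ift22 gave 0.30 ± 0.11 (adjusted p = 0.25), Tbc1d20, a GAP for Rab1, gave -0.42 ± 0.17 (adjusted p = 0.301), and the Rab8 and Rab10 effector Ehbp1 gave -0.40 ± 0.12 (adjusted p = 0.201) in RNA-seq and 0.90 ± 0.26 (adjusted p = 0.686) in TE.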

How the data were processed

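RNA-seq and RNC-seq were performed on sorted round spermatids of Igf2bp3+/- and Igf2bp3-/- males, with 3 libraries per genotype and assay, and samples were grouped by the labels. The submitters' processing notes name CASAVA 1.8, Trim Galore 0.6.6, HISAT2, StringTie 2.1.7 and the build GRCm38. The authors deposited FPKM values per gene symbol, which are not counts, so depth is known only from the size of the lowest steps in the table and no counting interval is given. The labels and the methods name different library kits and sequencers. Of 28668 symbols, 25 that a spreadsheet had turned into dates were left out.

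From these values, log2(FPKM + 0.1) was fitted with limma 3.58.1 (trend) in R 4.3.3 for genes with a mean above 0.1 FPKM in the libraries of each assay used, with Benjamini-Hochberg adjustment over all genes tested and a limit of 0.05 (two-sided). The fits were checked on simulated data in which genes with a mean above 1 FPKM were changed 4-fold. Of the changed genes 78.4% were recovered in the TE design and between 90.0% and 93.5% in the other 4. These rates do not hold for smaller changes or lower genes. Ratios of paralogs were tested by exact permutation. Positions, lengths and overlaps came from GENCODE M21, and near-identical copies from BLAST 2.17.0 (95% identity over 50% of a transcript), which found only the overlapping partners of Rab2b, Rab4b, Rab24 and Rab43. Rab genes were named where they were among the 12 highest in Igf2bp3+/- RNA-seq, past the limit (at most 10 each way), among the 3 highest and 3 lowest differences of a comparison, or in a paralog pair, and other genes as the up to 4 with the smallest adjusted p of a list. The members, lists and tests were chosen with earlier results of these data known. Alternatives were another pseudocount (1 or 0.01), no filter or 1 FPKM, centring on the library median, quantile normalization, a replicate block, 1 fit of all 12 libraries, and leaving out each replicate. The labels call the replicates biological, and p-values measure the spread between them.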

Additional observations from a re-analysis of the deposited data

How the results depend on the processing

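No genotype comparison gained a Rab member past the limit under any alternative run, leave-one-out settings included. For polysome loading in Igf2bp3+/-, leaving out a replicate number in both assays gave between 4 and 8 members past the limit and a median of -0.34 to -0.16, and the median was -0.12 with no filter on low values and -0.094 with a mean above 1 FPKM. In Igf2bp3-/-, leave-one-out settings gave between 0 and 3 members. Over all 18414 genes the same settings called 4805, 6476 and 5213 in place of 7993 in Igf2bp3+/- (without replicates 1, 2 and 3), and 4, 3953 and 4 in place of 3890 in Igf2bp3-/-, so the loss in Igf2bp3-/- is not particular to the Rab genes and the cause was not tested. Rab3d, Rab22a, Rab2b and Rab42 stayed past the limit in Igf2bp3+/- under every alternative run that kept them.

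With a replicate block, Igf2bp3+/- had 13 members past the limit, 12 of them among the 14, and Igf2bp3-/- had 2 in place of 4, and all genotype comparisons stayed at 0. Per the methods total and polysomal RNA come from the same extract, but the labels do not tie the numbers to animals. The deviations from group means of total and polysomal libraries with the same number correlated at -0.051, 0.17 and 0.13 in Igf2bp3-/- and at 0.21, -0.10 and 0.20 in Igf2bp3+/-, so not every pair deviated together and the block was kept as an alternative.

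Among differences that never passed, a left-out library turned the sign of Rab7 in RNA-seq (-0.13 to 0.0060, highest without Igf2bp3+/- replicate 2) and, in RNC-seq, of Rab33b (-0.58 to 0.14, highest without Igf2bp3+/- replicate 3), Rab10 (-0.24 to 0.0076, highest without Igf2bp3-/- replicate 3) and Rab1 (-0.13 to 0.063, with 0.011 without Igf2bp3-/- replicate 2 and 0.063 without Igf2bp3+/- replicate 3). The cause was not tested. Depth limits the low members: at 0.1 FPKM a transcript of 1 kb rests on a few fragments.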
